A study of Mus musculus with 16 samples.

Results

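This report describes 35 genes of the Wnt and beta-catenin pathway, taken by symbol from the 39017 genes of the deposited expression table, in brain tissue of Cdh2 mutant mice. They are 7 Wnt ligands, 8 Frizzled receptors, 2 co-receptors, 3 dishevelled genes, 3 genes of the beta-catenin destruction complex, 4 TCF/LEF transcription factors, 3 secreted modulators and 5 feedback and target genes. All 35 were found in the table, and all 35 were among the 14814 genes tested, and their means across libraries lay between 13.3 and 2932. The study asked which transcripts differ when N-cadherin, the adhesion protein that Cdh2 encodes, carries a knock-in histidine-to-tyrosine change. The groups were homozygous Mutant and WT male C57BL/6JRcc mice of 13 weeks, with 4 libraries per genotype from the ventral midbrain (vMB) and 4 from the prefrontal cortex (PFC).

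The mice came from behavioural testing and were perfused with saline and formaldehyde before the tissues were micro-dissected from a frozen hemisphere. The knock-in exists as a pair of founder lines, and the line of each library is not given, nor is it stated whether a vMB and a PFC library share an animal or whether a library is a single animal. The p-values therefore measure the spread between these libraries. Values are gene counts that the authors normalized for library size, referred to below as normalized values. Estimated depth was 7.71 to 11.4 M reads per library, so that 1 read was worth 0.78 to 1.3 units of normalized value. Summed marker levels separated the tissues. The 8 dopamine neuron markers summed to 3386 to 4582 in the vMB libraries and to 335 to 494 in the PFC libraries. Aldh1a1 alone gave 1617 to 1998 of the vMB sum. Nr4a2 did not separate the tissues, at 58.3 to 185.7 in the vMB and 61.3 to 194.6 in the PFC. The 7 cortical projection neuron markers measured summed to 1046 to 3998 in the vMB and to 17472 to 23426 in the PFC. Cdh2 itself had normalized values of 1110, 1043, 590 and 574 in vMB Mutant, against 1082, 1115, 1148 and 1124 in vMB WT. In the PFC it had 522, 780, 663 and 577 in Mutant and 1103, 1165, 1023 and 923 in WT. Mutant libraries 1 and 2 of the vMB were thus at the WT level, and the allele is a missense change, so the level of Cdh2 does not check the genotype labels.

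In the canonical Wnt pathway a secreted Wnt ligand binds a Frizzled receptor together with an LRP co-receptor and recruits dishevelled. Dishevelled then inactivates the complex of axin, APC and GSK3 that marks beta-catenin for destruction, and beta-catenin accumulates and activates TCF/LEF factors in the nucleus. Beta-catenin also binds the cytoplasmic tail of N-cadherin at cell junctions. In the brain the pathway is known for dopaminergic neuron development in the ventral midbrain, for thalamic identity, for the blood-brain barrier and for synapse assembly. In bulk tissue, fewer cells of a type and less RNA per cell cannot be told apart.

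Genotype was compared first. In the vMB, 2 of the 35 genes fell in Mutant and none rose, and both are dishevelled genes, Dvl2 and Dvl3. Mutant levels were 73.3% of WT for Dvl2 and 74.1% for Dvl3, while Dvl1 stood at 99.3%. A gene was called at an adjusted p of at most 0.05 from limma and a fold of 1.3 or more. The called share was 5.71% of the 35 genes, against 3.25% of all tested genes, with 2.02% lower and 1.23% higher. The difference lay below 0 for 27 of the 35 genes (77.1%), against 51.1% of all tested genes. The median log2 difference was -0.12 over the 35 genes and -0.01 over all tested genes. An unadjusted limma p below 0.05 was found for 10 of the 35 (28.6%), against 20.9% of all tested genes.

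**Figure D1:**
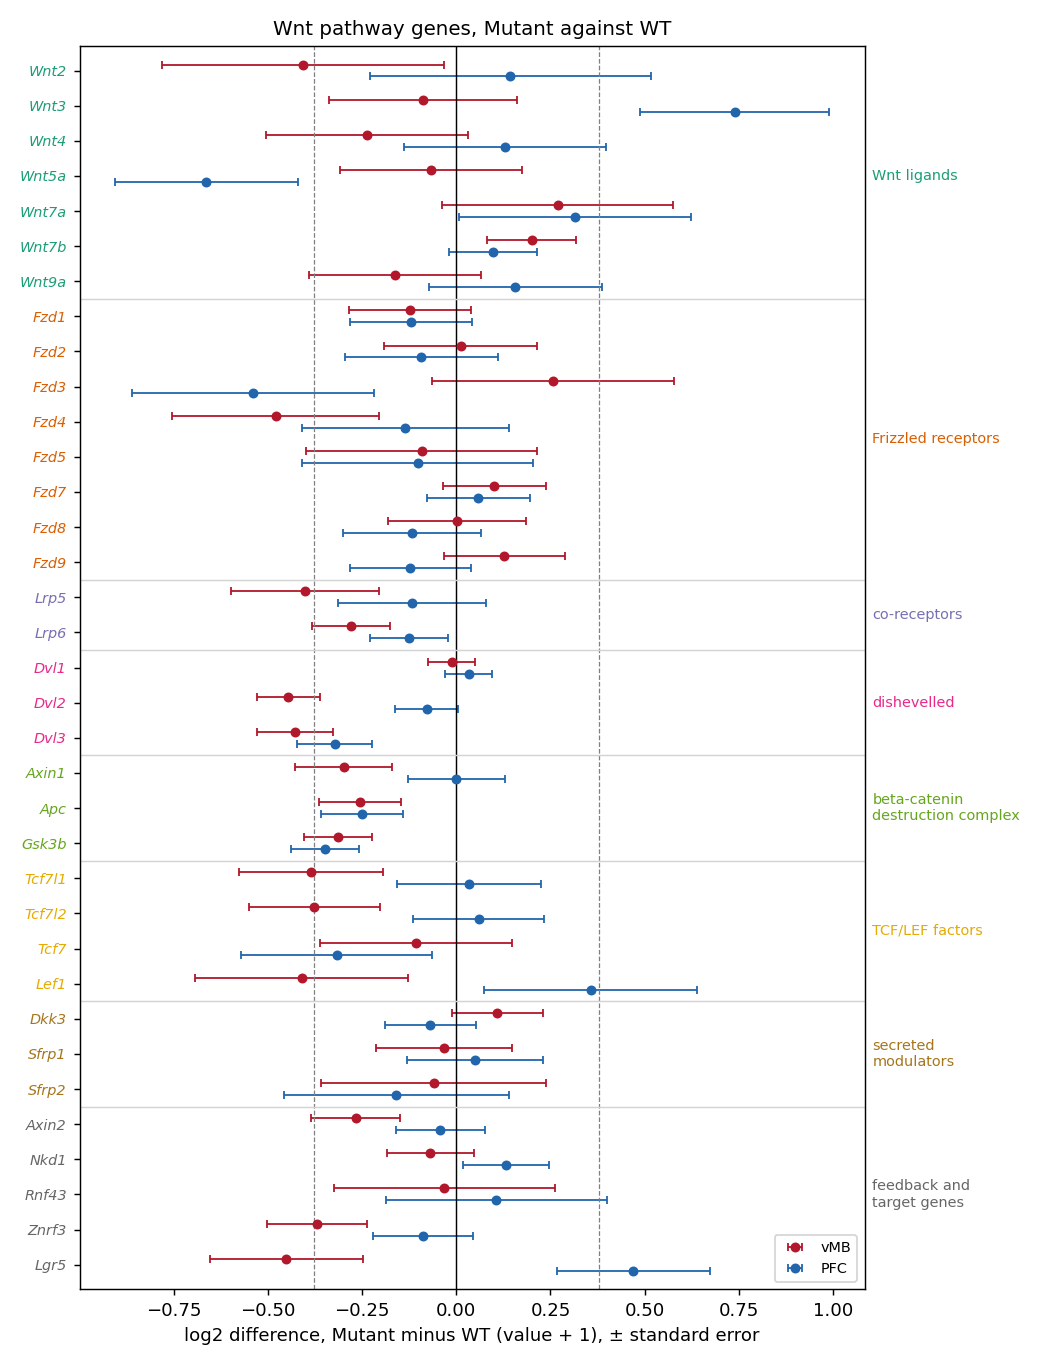
Differences between Mutant and WT for the 35 genes, ordered by role. The x axis is the log2 difference (normalized value plus 1), points are vMB (red) and PFC (blue) estimates, bars are standard errors from limma, and dashed lines mark a fold of 1.3. In the vMB, 27 of 35 points lie below 0, with Dvl2 at -0.45 and Dvl3 at -0.43, while Dvl1 lies at -0.01.

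Dishevelled proteins are the cytoplasmic relay between Frizzled receptors and the destruction complex. Dvl2 had normalized values of 134.7, 126.4, 140.1 and 148.7 in vMB Mutant, against 187.8, 191.2, 173.4 and 197.4 in vMB WT. All 4 Mutant libraries lay below all 4 WT libraries. The log2 difference was -0.45 ± 0.08 (SE, n = 4 each, limma adjusted p = 0.0069). A two-sided exact permutation test gave the smallest p it can give with 4 against 4 libraries, 0.0286. Any gene whose groups do not overlap gets this exact p, as did 15.4% of all tested genes in the vMB. It therefore adds nothing to the separation, here or for the genes below. In the PFC, Dvl2 had 298.9, 302.7, 284.7 and 304.4 in Mutant and 287.8, 351.2, 322.6 and 298.7 in WT. These groups overlapped, with a log2 difference of -0.08 ± 0.08 (limma adjusted p = 0.69). The difference between the tissues in the genotype effect on Dvl2 was -0.37 ± 0.12 (limma adjusted p = 0.73) and was not called. The vMB call for Dvl2 held with each library left out in turn. It was lost with each library's trend with transcript length removed (-0.36, under the fold minimum), as given below.

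Dvl3 had normalized values of 240.0, 231.6, 263.7 and 226.5 in vMB Mutant, against 312.9, 326.2, 295.0 and 363.1 in vMB WT. The groups were again separate, with a log2 difference of -0.43 ± 0.10 (limma adjusted p = 0.019; exact permutation p = 0.0286). In the PFC, Dvl3 had 260.3, 293.2, 364.1 and 349.3 in Mutant and 398.0, 370.2, 390.9 and 413.8 in WT. The highest PFC Mutant library lay just below the lowest WT library, and the log2 difference of -0.32 ± 0.10 did not pass the test over all genes (limma adjusted p = 0.12; exact permutation p = 0.0286). Without vMB WT replicate 4 the adjusted p for Dvl3 in the vMB was 0.081, without vMB Mutant replicate 2 it was 0.052 and without vMB Mutant replicate 4 it was 0.074, so the call rested on each of these libraries.

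Dvl1, the most abundant dishevelled transcript per kb of exon in every group, did not differ detectably between genotypes. It had 804.4, 899.9, 842.7 and 894.7 in vMB Mutant, against 846.3, 885.5, 864.5 and 869.8 in vMB WT. Its log2 difference was -0.01 ± 0.06 in the vMB and 0.03 ± 0.06 in the PFC. Per kb of exon, Dvl1 averaged 172 in vMB Mutant and 173 in vMB WT, where Dvl3 averaged 37.5 and 50.6 and Dvl2 averaged 21.8 and 29.8.

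Gsk3b encodes the kinase that phosphorylates beta-catenin in the destruction complex. It had normalized values of 1275, 1118, 1425 and 1211 in vMB Mutant, against 1414, 1543, 1577 and 1702 in vMB WT. Mutant library 3 lay just above WT library 1, so the groups overlapped there, and the log2 difference was -0.31 ± 0.09. The limma adjusted p was 0.047, but the change was under the 1.3-fold minimum. With a library left out, this vMB adjusted p from limma was 0.029 to 0.16. Under the other settings run it was 0.032 to 0.27, with log2 differences of -0.31 to -0.17. In the PFC, Gsk3b had 1001, 1056, 1211 and 1272 in Mutant and 1535, 1286, 1444 and 1502 in WT. All PFC Mutant libraries lay below all WT libraries, with a log2 difference of -0.35 ± 0.09 (limma adjusted p = 0.083; exact permutation p = 0.0286). This was the lowest adjusted p of the 35 genes in the PFC, where none was called (0.142% of all tested genes were called), and 6 of the 35 had an unadjusted limma p below 0.05 (17.1%, the same share as of all tested genes). Without PFC Mutant replicate 3, 4 of the 35 genes were called in the PFC, namely Dvl3 at -0.39, Gsk3b at -0.38, Lgr5 at 0.68 and Wnt3 at 1.02. The count over all tested genes also moved, from 21 in the full fit to between 0 and 260 with a library left out. Without PFC WT replicate 2, Gsk3b was called at -0.40 (limma adjusted p = 0.048).

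**Figure D2:**
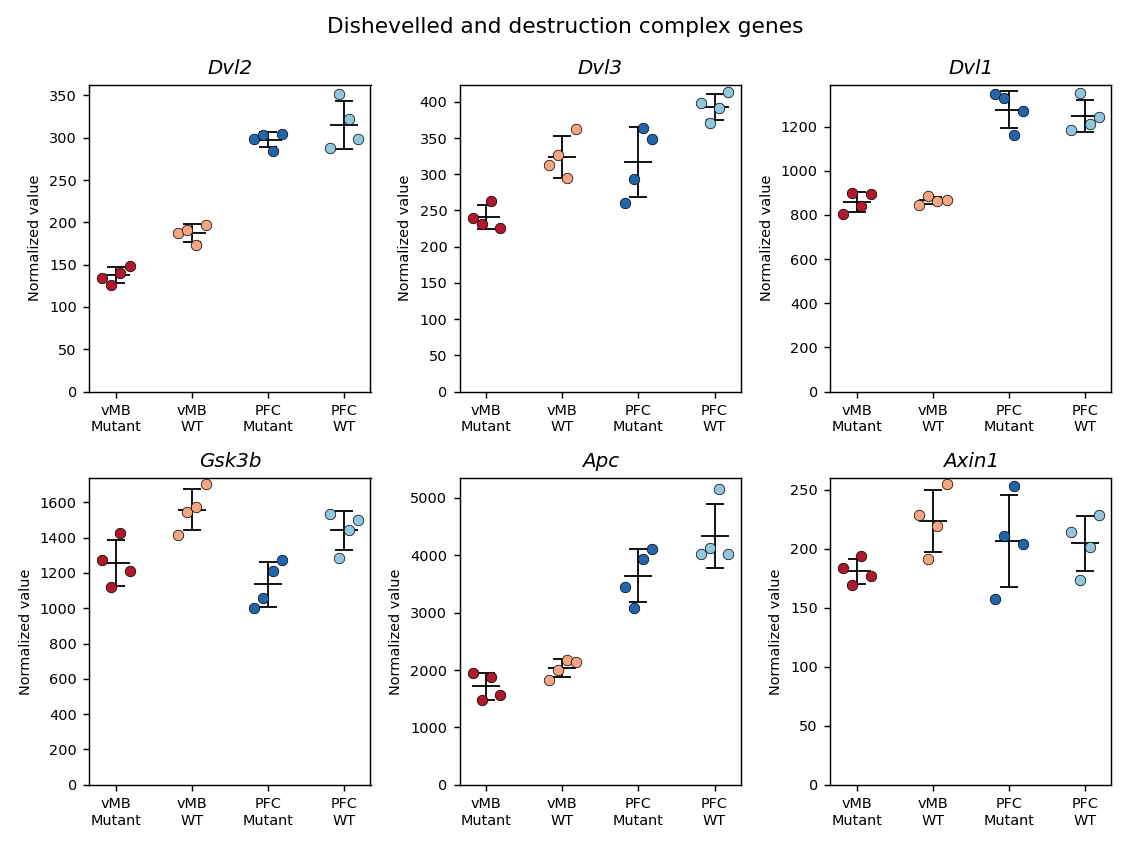
Normalized values of the 3 dishevelled genes and of Gsk3b, Apc and Axin1 in each library. Points are libraries in the order of their replicate numbers, horizontal marks are group means and bars are SD (n = 4 per group), and every y axis starts at 0. For Dvl2 the 4 vMB Mutant libraries sit between 126.4 and 148.7, all below the vMB WT libraries at 173.4 to 197.4.

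The upstream sequences of Dvl2, Dvl3 and Gsk3b are shown because these are the members lowest in adjusted p in the vMB. Each is the 250 bases before the annotated start, 5′ to 3′ on the plus strand, from RefSeq on GRCm38.p6. The TCF/LEF core motif CTTTGA was searched on both strands (TCAAAG on the other strand) and is in capitals. The regions are chr11:70000342-70000591 for Dvl2, chr16:20516736-20516985 for Dvl3 and chr16:38088751-38089000 for Gsk3b.
Dvl2: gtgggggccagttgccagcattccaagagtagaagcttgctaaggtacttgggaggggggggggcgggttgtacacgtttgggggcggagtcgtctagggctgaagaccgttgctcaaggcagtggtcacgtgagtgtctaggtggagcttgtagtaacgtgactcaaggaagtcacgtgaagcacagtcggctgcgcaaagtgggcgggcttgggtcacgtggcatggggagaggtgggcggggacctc
Dvl3: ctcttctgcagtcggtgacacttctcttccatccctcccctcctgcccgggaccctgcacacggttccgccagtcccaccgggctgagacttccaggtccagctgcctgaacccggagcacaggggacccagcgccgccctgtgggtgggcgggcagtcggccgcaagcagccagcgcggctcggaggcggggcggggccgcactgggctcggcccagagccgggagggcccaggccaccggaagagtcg
Gsk3b: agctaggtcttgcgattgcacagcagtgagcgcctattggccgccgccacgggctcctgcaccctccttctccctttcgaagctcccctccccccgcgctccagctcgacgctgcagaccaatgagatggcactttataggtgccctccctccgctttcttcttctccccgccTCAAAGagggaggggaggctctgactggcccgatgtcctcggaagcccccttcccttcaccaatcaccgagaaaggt

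The motif began 77 bases before the start of Gsk3b and was not in the windows of Dvl2 and Dvl3. Windows of 300 bases, 250 before and 50 after the start, were held for 22 of the 35 genes, 28 windows in all. The motif was in 3 of them (10.7%), those of Lef1, Fzd1 and Gsk3b, and in 16.0% of all 32851 windows. The printed stretch was 60.8% G and C in Dvl2, 72.8% in Dvl3 and 62.0% in Gsk3b. Dvl2 spans 70000595 to 70012301 on chromosome 11 of GRCm38 in the GENCODE annotation, Dvl3 spans 20516982 to 20534010 on chromosome 16 and Gsk3b spans 38089001 to 38246084 on chromosome 16, all on the plus strand. Chromosome 11 also carries Wnt3, Wnt9a, Fzd2, Tcf7, Axin2, Rnf43 and Znrf3, which makes 8 of the 35 genes (22.9%), against 8.13% of tested genes.

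The other scaffolds of the destruction complex were lower in the vMB without being called. Apc, the large scaffold that binds beta-catenin, averaged 1715 ± 231 in vMB Mutant and 2037 ± 159 in vMB WT (SD, n = 4 each), a log2 difference of -0.25 ± 0.11 (limma adjusted p = 0.18). In the PFC it averaged 3646 ± 467 in Mutant and 4331 ± 554 in WT, with a log2 difference of -0.25 ± 0.11 (limma adjusted p = 0.25). Axin1, the limiting scaffold, averaged 181 ± 10.7 in vMB Mutant and 223 ± 26.4 in vMB WT (SD, n = 4 each), a log2 difference of -0.30 ± 0.13, and was at 0.00 in the PFC. Beta-catenin itself, Ctnnb1, differed by -0.03 ± 0.06 in the vMB and by 0.00 ± 0.06 in the PFC on the log2 scale.

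The 5 feedback and target genes, which beta-catenin activity is known to raise in many tissues, all had lower means in vMB Mutant than in vMB WT, and none was called. For 3 of them the genotypes did not overlap. Lgr5, a receptor for R-spondins, had 107.0, 96.2, 107.7 and 85.2 in vMB Mutant, against 146.5, 120.0, 113.2 and 167.6 in vMB WT. Axin2, a destruction complex scaffold induced by the pathway, had 140.2, 140.9, 137.1 and 125.5 in vMB Mutant, against 160.6, 177.1, 175.7 and 143.3 in vMB WT. Znrf3, a ubiquitin ligase that removes Frizzled receptors from the membrane, had 69.9, 54.1, 57.4 and 64.7 in vMB Mutant, against 75.2, 72.2, 98.9 and 74.0 in vMB WT. In each of these genes the highest Mutant library lay below the lowest WT library, by a narrow margin. The log2 differences were -0.45 ± 0.20 for Lgr5, -0.27 ± 0.12 for Axin2 and -0.37 ± 0.13 for Znrf3, with limma adjusted p of 0.21, 0.20 and 0.11 over all tested genes. With Dvl2 and Dvl3, 5 of the 35 genes had all Mutant libraries below all WT libraries in the vMB (14.3%) and none had all above. Over all tested genes 15.4% did not overlap there, 7.56% with Mutant below and 7.82% with Mutant above. In the PFC, 2 genes had all Mutant libraries below (5.71%), Dvl3 and Gsk3b, against 8.02% of tested genes that did not overlap and 3.79% with Mutant below.

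The same 3 target genes showed no common direction in the PFC. Lgr5 had 28.5, 24.0, 15.4 and 34.3 in PFC Mutant, against 19.1, 15.4, 18.9 and 16.8 in PFC WT, with 3 of 4 Mutant libraries above all WT libraries. Its PFC difference was 0.47 ± 0.20 on the log2 scale (limma adjusted p = 0.25), and its vMB difference was lower than that by 0.92 ± 0.29. That contrast of the tissues had the smallest unadjusted p of the 35 genes and an adjusted limma p of 0.73. Axin2 differed by -0.04 ± 0.12 and Znrf3 by -0.09 ± 0.13 in the PFC. Of the other targets, Nkd1, an inhibitor of dishevelled, differed by -0.07 in the vMB and 0.13 in the PFC, and Rnf43, a ubiquitin ligase related to Znrf3, by -0.03 and 0.11.

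**Figure D3:**
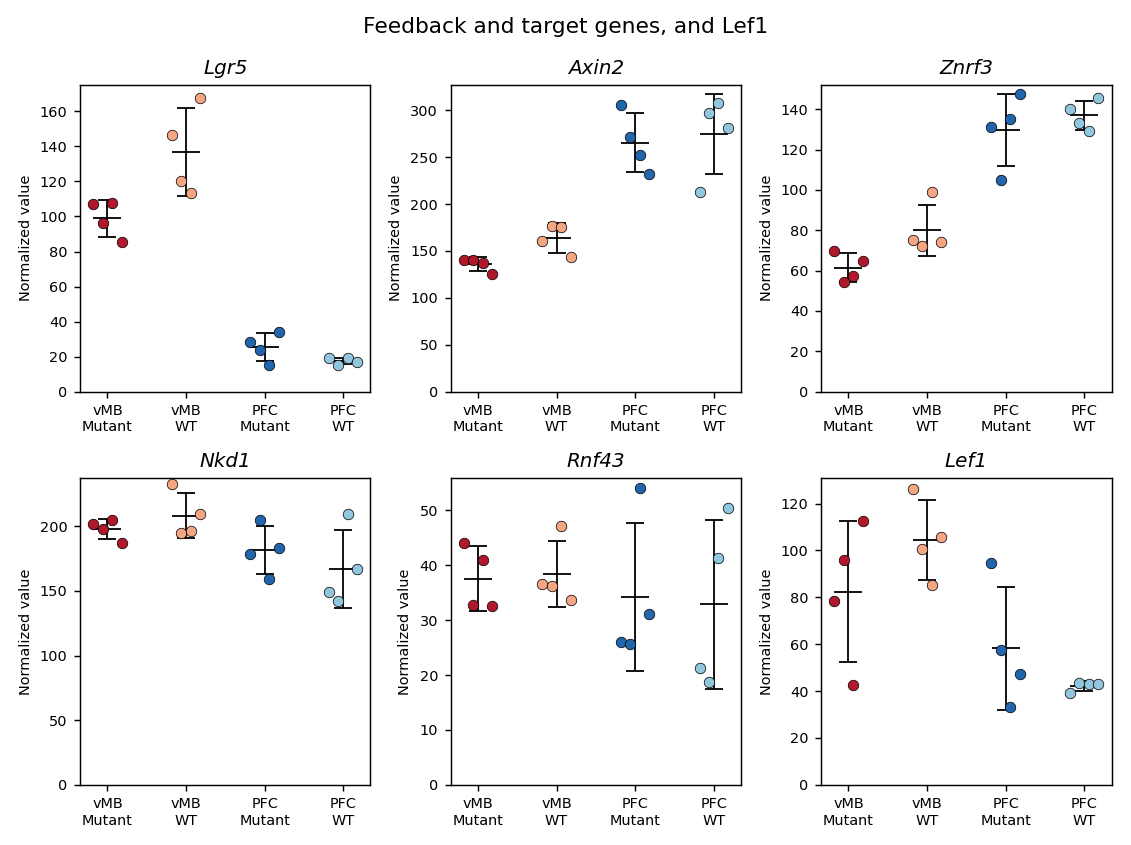
Normalized values of the 5 feedback and target genes and of Lef1 in each library. Points are libraries, horizontal marks are group means and bars are SD (n = 4 per group), and every y axis starts at 0. In the vMB, Lgr5 lies at 85.2 to 107.7 in Mutant and at 113.2 to 167.6 in WT, while in the PFC 3 of 4 Mutant libraries lie above the WT libraries.

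None of the 7 ligands and none of the 8 Frizzled receptors was called between genotypes in either tissue. Ligand differences ran from -0.41 to 0.27 in the vMB and from -0.66 to 0.74 in the PFC on the log2 scale. The ends of the PFC range were Wnt5a, a ligand best known for beta-catenin-independent signalling, and Wnt3, a canonical ligand. Wnt5a had 43.1, 46.1, 35.8 and 55.2 in PFC Mutant, against 111.2, 56.7, 47.8 and 84.3 in PFC WT, and its groups overlapped at 1 library (limma adjusted p = 0.17). Wnt3 had 18.1, 24.6, 8.8 and 19.0 in PFC Mutant, against 9.97, 7.9, 12.7 and 8.3 in PFC WT (limma adjusted p = 0.15). In all, 3 of the Mutant libraries lay above all WT libraries, at a level of few reads per library.

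Frizzled differences ran from -0.48 to 0.26 in the vMB and from -0.54 to 0.06 in the PFC. The lowest in the vMB was Fzd4, a receptor of endothelial cells that also binds norrin, at -0.48 ± 0.28 (limma adjusted p = 0.34), and it had 48.4, 46.4, 54.9 and 44.8 in Mutant, against 57.7, 48.8, 81.6 and 92.9 in WT. The 10 endothelial markers summed to 1601 to 1755 in vMB Mutant, against 1885 to 2488 in vMB WT, and 4 of the 10 were called lower, Pecam1, Cdh5, Flt1 and Tek. Their part in the Fzd4 values was not tested. The co-receptors Lrp5 and Lrp6, which pair with Frizzled receptors, differed by -0.40 ± 0.20 and -0.28 ± 0.10 in the vMB, and neither was called. The 4 TCF/LEF factors lay between -0.41 and -0.11 in the vMB and between -0.32 and 0.36 in the PFC. Tcf7l2, the most abundant of them in the vMB, had 361, 564, 464 and 507 in Mutant, against 554, 806, 620 and 492 in WT, and overlapped (-0.38 ± 0.17, limma adjusted p = 0.22). Of the secreted modulators, Dkk3, Sfrp1 and Sfrp2 lay between -0.06 and 0.11 in the vMB and between -0.16 and 0.05 in the PFC.

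Over both tissues, none of the 35 genes was called with the fold minimum, where 2.59% of all tested genes were. At an adjusted p alone 4 of the 35 genes passed (11.4%), where 13% of all tested genes did, and all 4 were lower in Mutant, as were 6.64% of tested genes. They were Dvl3 at -0.38 ± 0.07, Gsk3b at -0.33 ± 0.06, Dvl2 at -0.26 ± 0.06 and Apc at -0.25 ± 0.08, with limma adjusted p of 0.0027, 0.0030, 0.0076 and 0.038. Without any 1 of PFC Mutant replicates 1 and 2, PFC WT replicate 3, vMB Mutant replicates 2 and 4 and vMB WT replicates 2, 3 and 4, the adjusted p for Apc was 0.058 to 0.086. Dvl3 passed the fold minimum (-0.41 to -0.38) without any 1 of PFC Mutant replicates 3 and 4, PFC WT replicate 2, vMB Mutant replicate 3 and vMB WT replicates 1 and 3, and Wnt3 was called at 0.47 without PFC Mutant replicate 3. The median over the 35 genes was -0.11, against -0.01 over all tested genes, and 7 had an unadjusted limma p below 0.05 (20.0%, against 27.5% of all tested genes). The genotype difference in the vMB minus that in the PFC was called for none of the 35 genes and for 0% of tested genes. The lowest adjusted limma p among the 35 was 0.73, and 3 had an unadjusted p below 0.05 (8.57%, against 5.83% of all tested genes), Lgr5, Dvl2 and Wnt3.

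Genotype also moved with transcript length. The slope of a gene's log2 deviation on its log2 exon length averaged -0.0926 ± 0.0312 in vMB Mutant and 0.00771 ± 0.0284 in vMB WT, and 0.000279 ± 0.0265 in PFC Mutant and 0.0846 ± 0.0200 in PFC WT (SD, n = 4 each). The exact permutation p was 0.0286 in each tissue. The 35 genes had a median exon length of 4996 bases, against 4418 bases over the tested genes. With each library's trend with length removed, Dvl2 in the vMB was -0.36 ± 0.08 (limma adjusted p = 0.036, under the fold minimum) and Dvl3 was -0.34 ± 0.10 (adjusted p = 0.082), so neither was called. The value for Apc over both tissues was then -0.05 (adjusted p = 0.70), and that for Gsk3b was -0.20 (adjusted p = 0.046). The exons of Apc sum to 16116 bases and those of Gsk3b to 9831, whereas those of Dvl2 sum to 6298 and those of Dvl3 to 6410.

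Beyond the 35 genes, 96 further Wnt pathway genes were matched and 81 were tested. In the vMB 6 of the 81 fell in Mutant (7.41%, against 3.25% of all tested genes) and none rose. Crebbp and Ep300, histone acetyltransferases that act as coactivators of beta-catenin among many other factors, had log2 differences of -0.45 ± 0.08 and -0.42 ± 0.10. Tnks, which marks axin for degradation, was at -0.54 ± 0.12, and Gpr124, a co-receptor for Wnt7a and Wnt7b in brain endothelium, at -0.55 ± 0.15. Beside Gpr124, the 10 endothelial markers had a median log2 difference of -0.55. The 8 pericyte and smooth muscle markers all lay below 0 (median -0.51, 1 called), and they summed to 1659 to 1889 in vMB Mutant, against 1953 to 2270 in vMB WT. The part of either in the Gpr124 values was not tested. Bcl9l, a nuclear partner of beta-catenin, and Ccdc88c, a binding partner of dishevelled, were both at -0.39. Crebbp had 212, 193, 198 and 189 in vMB Mutant, against 246, 282, 268 and 286 in vMB WT. Tnks had 513, 418, 619 and 403 in vMB Mutant, against 643, 679, 720 and 765 in vMB WT, with no overlap in either gene.

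Only Crebbp of these 6 held its vMB call with each library left out in turn. Without vMB WT replicate 4 the limma adjusted p was 0.060 for Tnks, 0.068 for Ep300, 0.11 for Bcl9l, 0.14 for Ccdc88c and 0.096 for Gpr124, and without vMB Mutant replicate 4 it was 0.064, 0.070, 0.10, 0.15 and 0.14 for the same genes. Bcl9l also lost its call without vMB Mutant replicate 2 (0.053), vMB Mutant replicate 3 (0.051) or vMB WT replicate 2 (0.052). Ccdc88c and Gpr124 lost theirs without vMB Mutant replicate 2 (0.085 and 0.074) or vMB WT replicate 2 (0.10 and 0.097). Ccdc88c did so without vMB WT replicate 3 (0.052) or PFC Mutant replicate 4 (0.052), and Gpr124 without vMB Mutant replicate 1 (0.052) or vMB WT replicate 1 (0.080). With the length trend removed none of the 6 was called. The log2 difference was then -0.48 for Gpr124, -0.34 for Tnks, -0.27 for Bcl9l, -0.26 for Crebbp and -0.23 for Ep300 and Ccdc88c, with limma adjusted p of 0.072 to 0.26.

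In the PFC limma called none of the 81, and 15 had an unadjusted p below 0.05 (18.5%, against 17.1% of all tested genes). Over both tissues 5 were lower (6.17%, against 2.59% of all tested genes) and none was higher: Tnks at -0.54, Wnt2b at -0.47, Reck at -0.42, Crebbp at -0.40 and Ep300 at -0.38. Reck, an anchored partner of Gpr124, had 58.8, 55.1, 60.4 and 45.7 in vMB Mutant, against 81.8, 64.8, 82.0 and 82.0 in vMB WT. In the PFC it had 135.1, 101.3, 88.0 and 75.8 in Mutant, against 127.1, 121.8, 114.8 and 138.5 in WT, and the groups overlapped. The endothelial, pericyte and smooth muscle markers given above were lower in vMB Mutant. In the PFC the endothelial markers summed to 1909 to 2492 in Mutant and to 2133 to 2849 in WT, which overlapped. The pericyte and smooth muscle markers there summed to 1654 to 2271 and to 1893 to 2904. The part of these markers in the Reck values was not tested. The fold of Reck over both tissues was under the minimum without PFC Mutant replicate 4 (-0.36). Wnt2b, a canonical ligand, had a limma adjusted p between 0.053 and 0.097 when any 1 library was left out other than PFC Mutant replicate 3, PFC Mutant replicate 4 or vMB WT replicate 3. Ep300 was under the fold minimum (-0.37 to -0.35) without any 1 of PFC Mutant replicates 1 and 2, PFC WT replicate 4, vMB Mutant replicates 2 and 4 and vMB WT replicates 2 and 4. With the length trend removed none of the 5 was called, at log2 differences of -0.46 for Wnt2b, -0.39 for Reck, -0.35 for Tnks, -0.22 for Crebbp and -0.20 for Ep300. Tnks and Crebbp then kept a limma adjusted p under the threshold (0.0099 and 0.018) and missed the fold minimum, Wnt2b (0.099) and Reck (0.052) missed the p threshold, and Ep300 missed both (0.052).

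The tissues were compared next, separately in each genotype. The vMB and the PFC differed in 22 of the 35 genes in WT (62.9%, against 43.6% of all tested genes) and in 21 in Mutant (60.0%, against 47.4%). In WT 10 were higher in the vMB and 12 lower (22% and 21.6% of tested genes), and in Mutant 9 were higher and 12 lower (23.7% and 23.6%). In both genotypes 20 genes were called the same way (57.1%, against 37.6% of tested genes), 9 higher and 11 lower in the vMB. Tcf7l2, Wnt3, Lgr5 and Sfrp2 were the most vMB-enriched, and Dkk3, Wnt9a, Wnt4 and Wnt2 the most PFC-enriched. Of the remaining genes, Fzd3 and Lef1 were called in WT alone and Dvl3 in Mutant alone, and 12 were called in neither. Those counts do not show that the tissue difference differs between genotypes, since that contrast was called for none of the 35.

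**Figure D4:**
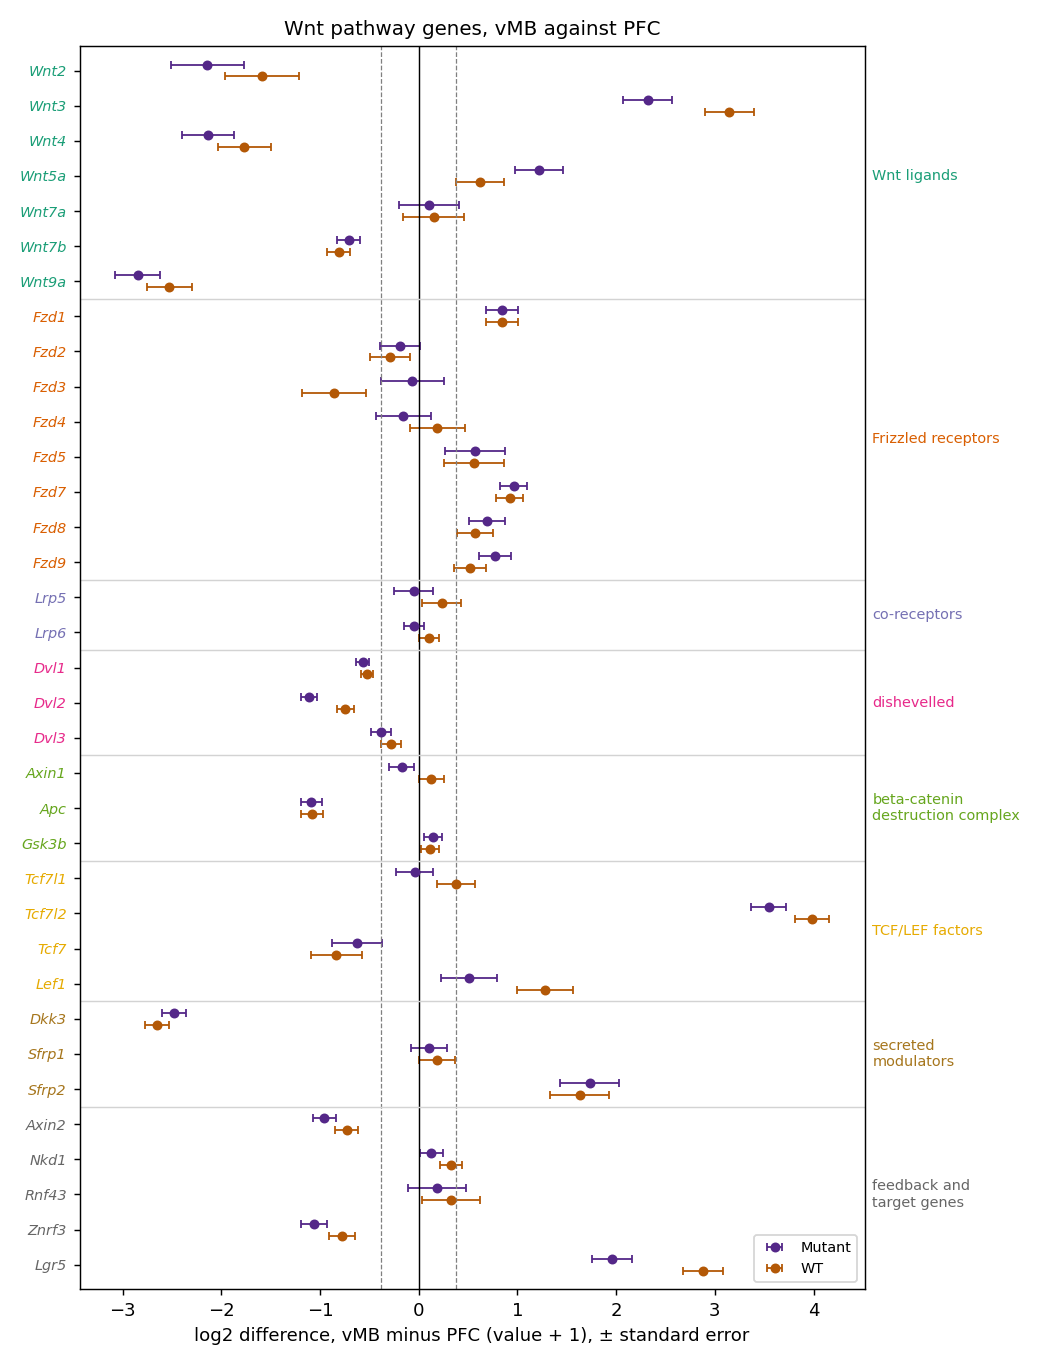
Differences between vMB and PFC for the 35 genes, ordered by role, in Mutant (purple) and in WT (orange). The x axis is the log2 difference (normalized value plus 1), bars are standard errors from limma and dashed lines mark a fold of 1.3. Tcf7l2 lies farthest to the right (3.54 in Mutant and 3.98 in WT), with Dkk3 at -2.47 and -2.65 and Wnt9a at -2.84 and -2.52 farthest to the left.

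Among the 7 ligands, 6 were called the same way between the tissues in both genotypes, as were 37.6% of all tested genes. Wnt3 had 83.5, 86.6, 72.1 and 109.7 in vMB Mutant, against 18.1, 24.6, 8.8 and 19.0 in PFC Mutant, and 88.9, 83.7, 110.6 and 89.1 in vMB WT, against 9.97, 7.9, 12.7 and 8.3 in PFC WT. The vMB mean was 4.98 times that of the PFC in Mutant and 9.58 times in WT. Wnt9a ran the other way, with 31.7, 21.4, 13.3 and 32.0 in vMB Mutant, against 171, 127, 196 and 212 in PFC Mutant. In WT, Wnt9a had 32.2, 27.6, 24.2 and 21.8 in the vMB, against 151, 149, 169 and 153 in the PFC. The PFC mean of Wnt9a was 7.17 times that of the vMB in Mutant and 5.88 times in WT.

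Wnt4 was also lower in the vMB, with 86.0, 60.7, 27.4 and 60.3 in vMB Mutant, against 224, 213, 256 and 280 in PFC Mutant. In WT it had 81.4, 50.6, 79.1 and 52.1 in the vMB, against 232, 235, 155 and 282 in the PFC. Wnt2, a canonical ligand, had the lowest mean normalized value of the 35 genes. It had 4.0, 10.3, 1.6 and 3.8 in vMB Mutant, against 17.6, 27.9, 20.7 and 22.3 in PFC Mutant, and 6.9, 4.8, 5.9 and 6.0 in vMB WT, against 24.3, 17.9, 25.4 and 13.5 in PFC WT, where the vMB values are a few reads each. In none of these 4 ligands did the tissues overlap within a genotype, as was so for 51.2% of tested genes in Mutant and 49.7% in WT. These 4 ligands were picked for large tissue differences, so their separation largely follows from that choice. Wnt7b was lower in the vMB by 0.71 ± 0.12 in Mutant and 0.81 ± 0.12 in WT, and Wnt5a was higher by 1.22 ± 0.24 and 0.62 ± 0.24. Wnt7a, which acts on brain vessels with Wnt7b, differed by 0.10 ± 0.31 in Mutant and 0.15 ± 0.31 in WT and was not called.

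Of all tested genes, 23.7% were called higher in the vMB in Mutant and 22% in WT. Of the 8 Frizzled receptors, 4 were called higher in the vMB in both genotypes. These were Fzd7 (0.96 in Mutant and 0.92 in WT on the log2 scale), Fzd1 (0.84 and 0.84), Fzd9 (0.77 and 0.52) and Fzd8 (0.69 and 0.57). Fzd3 was called lower in the vMB in WT (-0.86) and was not called in Mutant. Fzd2, Fzd4 and Fzd5 were called in neither genotype. Lrp5 and Lrp6 differed by -0.05 and -0.05 in Mutant and by 0.23 and 0.10 in WT, and neither was called. Of the dishevelled genes, Dvl2 was lower in the vMB by 1.11 ± 0.08 in Mutant and 0.74 ± 0.08 in WT, and Dvl1 by 0.57 ± 0.06 and 0.52 ± 0.06. Dvl3 differed by -0.39 in Mutant, where it was called, and by -0.28 in WT, where it was not. Of the destruction complex, Apc was lower in the vMB (-1.09 in Mutant and -1.08 in WT), whereas Gsk3b (0.15 and 0.11) and Axin1 (-0.17 and 0.13) were not called.

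Tcf7l2, the TCF factor best known from thalamic, habenular and midbrain neurons and from maturing oligodendrocytes, had 361, 564, 464 and 507 in vMB Mutant, against 42.7, 44.8, 31.9 and 38.8 in PFC Mutant. In WT it had 554, 806, 620 and 492 in the vMB, against 47.9, 40.1, 30.4 and 34.1 in the PFC. The vMB mean was 11.99 times that of the PFC in Mutant and 16.2 times in WT (log2 differences of 3.54 ± 0.17 and 3.98 ± 0.17, limma adjusted p = 2.32e-11 and 6.36e-12). The 7 thalamic and habenular markers measured summed to 3370 to 4497 in the vMB libraries, against 356 to 536 in the PFC libraries. Slc17a6 alone gave 1948 to 2440 of that vMB sum, Prkcd 289 to 1193, Gbx2 41.4 to 90.2 and Pou4f1 32.0 to 113.5. The 8 oligodendrocyte markers summed to 136439 to 173610 in the vMB, against 23265 to 89069 in the PFC. The part of either list in the Tcf7l2 difference was not tested. Tcf7 was lower in the vMB by 0.62 ± 0.25 in Mutant and 0.83 ± 0.25 in WT. Lef1, known from the midbrain and thalamus and from vessels, was higher in the vMB by 1.28 ± 0.28 in WT (limma adjusted p = 9.1e-04) and by 0.51 ± 0.28 in Mutant (adjusted p = 0.13).

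**Figure D5:**
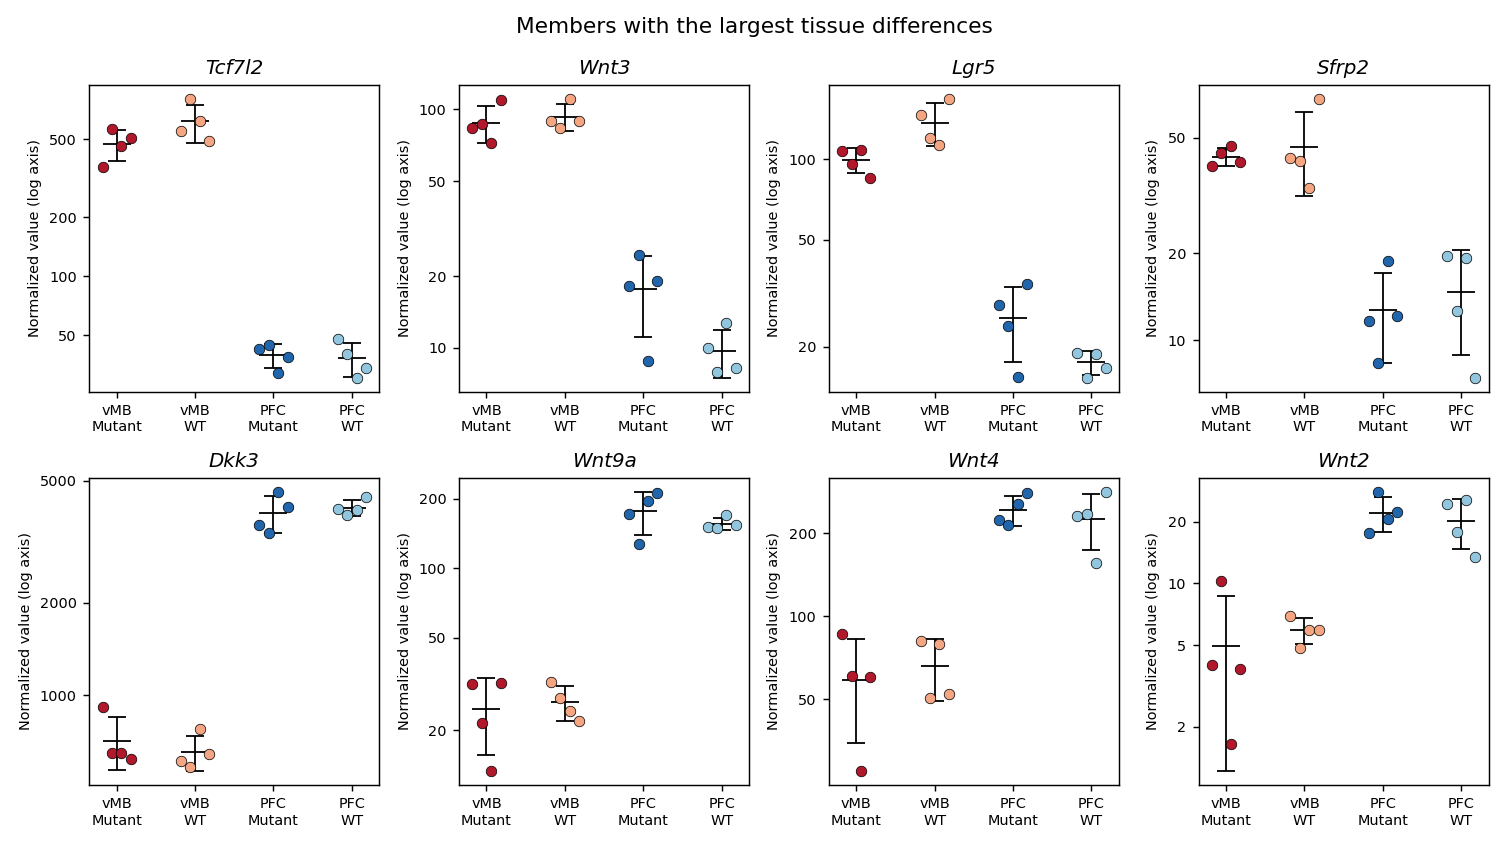
Normalized values, on log axes, of the 4 genes most enriched in the vMB and the 4 most enriched in the PFC in each library. Points are libraries, horizontal marks are group means and bars are SD (n = 4 per group). The 8 genes were picked for large tissue differences, so the lack of overlap between vMB and PFC libraries of a genotype largely follows from that choice. Of all tested genes, 51.2% did not overlap in Mutant and 49.7% in WT. Tcf7l2 lies at 361 to 806 in the vMB and 30.4 to 47.9 in the PFC.

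Dkk3, a divergent member of the dickkopf family of secreted proteins, was the most abundant of the 35 genes per kb in the PFC. It had 917, 648, 645 and 620 in vMB Mutant, against 3586, 3377, 4589 and 4104 in PFC Mutant. In WT it had 609, 581, 775 and 641 in the vMB, against 4029, 3869, 4003 and 4429 in the PFC. The PFC mean was 5.53 times that of the vMB in Mutant and 6.27 times in WT. Sfrp2, a secreted Frizzled-like inhibitor, ran the other way. It had 39.9, 44.4, 46.6 and 41.2 in vMB Mutant, against 11.7, 8.3, 18.8 and 12.1 in PFC Mutant, and 42.6, 41.5, 33.5 and 68.1 in vMB WT, against 19.6, 12.6, 19.2 and 7.4 in PFC WT. Its relative Sfrp1 was called in neither genotype, with 106 to 156 in the vMB libraries and 77.8 to 152 in the PFC libraries.

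Feedback and target genes did not share a direction between tissues. Lgr5 was higher in the vMB, where Mutant libraries had 85.2 to 107.7 and WT libraries 113.2 to 167.6, against 15.4 to 34.3 in PFC Mutant and 15.4 to 19.1 in PFC WT. The log2 difference was 1.96 ± 0.20 in Mutant and 2.88 ± 0.20 in WT. Axin2 was lower in the vMB by 0.95 ± 0.12 in Mutant and 0.73 ± 0.12 in WT, and Znrf3 by 1.06 ± 0.13 and 0.78 ± 0.13. Nkd1 and Rnf43 were called in neither genotype.

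Per kb of exon, which allows genes to be compared, the order of the ligands, of the Frizzled receptors and of the TCF/LEF factors differed between the tissues. Among ligands, vMB WT was led by Wnt7b (50.3), Wnt3 (30.3) and Wnt7a (28.8), and PFC WT by Wnt7b (88.4), Wnt4 (53.9) and Wnt9a (46.7). Neither Wnt3 and Wnt7a in vMB WT nor Wnt4 and Wnt9a in PFC WT differed beyond the spread of their libraries. Among Frizzled receptors, Fzd1 (49.3), Fzd2 (34.1) and Fzd9 (33.2) led in vMB WT and Fzd2 (41.1), Fzd1 (27.9) and Fzd9 (23.2) in PFC WT. The values of Fzd2 and Fzd9 in vMB WT, and of Fzd1 and Fzd9 in PFC WT, were within their spread of each other. Tcf7l2 (70.4) led the TCF/LEF factors in vMB WT and Tcf7 (15.3) in PFC WT.

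Among the 81 further pathway genes, 50 differed between vMB and PFC in Mutant (61.7%, with 16 higher and 34 lower), against 47.4% of all tested genes (23.7% higher and 23.6% lower). In WT 46 of the 81 differed (56.8%, with 15 higher and 31 lower), against 43.6% of all tested genes (22% higher and 21.6% lower). The 3 largest rises in the vMB in WT were Sfrp5, a secreted Frizzled-like inhibitor also made by choroid plexus, Sostdc1, a secreted antagonist, and Vangl1, a planar polarity membrane protein. Sfrp5 had 146.7, 214.3, 195.5 and 256.0 in vMB WT, in the order of the replicate numbers, against 0 to 7.0 in PFC WT. Sostdc1 had 43.5, 16.6, 29.1 and 22.8 in the same vMB WT libraries, against 2.3 to 5.5 in PFC WT. The choroid plexus and ependymal markers summed to 10016, 613, 3254 and 3637 in those vMB WT libraries, against 76 to 216 in PFC WT. Their part in the values of either gene was not tested. The 3 largest falls were Dkkl1, a dickkopf-like secreted protein (0.9 to 5.7 in vMB WT, against 162.8 to 205.2 in PFC WT), Camk2a, the calcium-dependent kinase of forebrain excitatory synapses (log2 difference -3.77), and Wnt10a, a canonical ligand (10.1 to 13.7 in vMB WT, against 97.2 to 166.2 in PFC WT).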

How the data were processed

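Poly-A libraries of micro-dissected tissue were sequenced single-end. According to the submitters' processing notes and the methods, the authors trimmed reads with Cutadapt 1.8.3, mapped them with TopHat2 2.0.10 and counted them per gene with HTSeq 0.6.1p1. These counts, normalized by the authors with DESeq2, make up the deposited signal values (its version was not stated). The sources name the human build GRCh38, whereas the identifiers are mouse Ensembl genes, and no mouse build is named in the sources used here. The values are not whole reads, so no test on counts was run. Depth was estimated from the most frequent low value and is approximate. The deposited fold changes, p-values and pass marks of the authors' own comparisons were not used. No pair of libraries had identical values.

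Of 39017 genes, 27197 had a value above 0 and 14814 whose mean over 16 libraries reached 10 entered the fit. This was limma 3.58.1 (R 4.3.3) on log2(value + 1), 4 groups of 4 libraries with a mean-variance trend, two-sided, with Benjamini-Hochberg adjustment over all tested genes. Log2 differences on this scale understate changes of low genes. A gene was called at adjusted p of 0.05 or less with a fold of 1.3 or more. Single genes were also tested by exact permutation of the 8 values. Exon lengths, for 99.0% of tested genes, are unions of exons in GENCODE vM21 (GRCm38). The fit was tested on simulated data. Genes given sample by sample are those called or not overlapping between genotypes and the 4 largest tissue differences each way, and Dvl1, Wnt3, Wnt5a, Fzd4 and Tcf7l2 were added after their values were seen. Of 97 further pathway genes listed, those called by genotype and the 3 largest tissue differences each way are named. The 35 genes and the lists were chosen with earlier results of these data known.

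Alternatives were pseudocounts, filters, scalings, a fit of 8 libraries, no mean-variance trend and no fold minimum. The others were removal of the length trend (loess, span 0.3), the replicate number or title code as a block, and leaving out each library.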

Additional observations from a re-analysis of the deposited data

Results flagged for a closer look

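Each of the 140 groups of 4 values (35 genes in 4 groups) was searched for a library far from the other 3, and 11 were found. Chance marks about 5% of groups, or 7. In the vMB, Mutant library 3 had 142 for Wnt5a, with the others at 92.2 to 98.8. Mutant library 1 of the vMB had 116 for Fzd7 (others 99.0 to 99.8) and 917 for Dkk3 (others 620 to 648). The cortical projection neuron markers, which summed to 3998, were also highest there. Their part in the Fzd7 and Dkk3 values was not tested. Among vMB WT libraries, library 1 had 75.7 for Fzd2 (others 137 to 145) and 357 for Lrp6 (others 425 to 430), and library 3 had 98.9 for Znrf3 (others 72.2 to 75.2). Among PFC WT libraries, library 2 had 176 for Wnt7a (others 57.7 to 67.5), and library 4 had 101 for Fzd4 (others 48.6 to 52.1). Library 3 of PFC WT had 90.5 for Lrp5 (others 84.5 to 84.9) and 5159 for Apc (others 4014 to 4120), and library 1 had 39.0 for Lef1 (others 42.9 to 43.4).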

How the results depend on the processing

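The count of the 35 genes called in the vMB, 2 as reported, was 1 to 2 with a library left out and 0 with each library's length trend removed, alone or with the replicate block. It was 3 with no fold minimum, when Gsk3b was added. In the PFC the count of 0 became 0 to 4 with a library left out, and over both tissues the count of 0 became 0 to 2 with a library left out (Dvl3, with Wnt3 in 1 case) and 4 with no fold minimum. For the vMB minus PFC contrast the count was 0 under every alternative run. The count between tissues, 22 in WT and 21 in Mutant, stayed within 1.5 times under every alternative run (18 to 24 and 17 to 22). No result recomputed changed sign. Over all tested genes, the count called was 481 in the vMB and ranged from 118 to 956, 21 in the PFC and from 0 to 260, and 383 over both tissues and from 114 to 1923. Libraries with the same replicate number did not deviate together (correlations between Mutant and WT of a tissue from -0.0878 to 0.0873), nor did those with the same title code (-0.0196). With the replicate block as a term, 2 of the 35 genes were called in the vMB and 0 in the PFC. Of the further pathway genes, Gpr124 and Ccdc88c in the vMB and Wnt2b over both tissues lost their calls with that block and also with no filter on low values. Upper quartile rescaling ended those of Bcl9l and Ccdc88c in the vMB and of Crebbp, Ep300 and Wnt2b over both tissues, the fit of only the 8 vMB libraries that of Ccdc88c (limma adjusted p = 0.076) and a pseudocount of 5 that of Ep300 over both tissues. The cause was not tested. Precision is limited by 4 libraries per group and, for genes such as Wnt2, by a few reads per library.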
